A study of Oryza sativa Japonica Group with 8 samples.

Results

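Photosystem I is the thylakoid complex that takes electrons from plastocyanin in the lumen and, using light, passes them to ferredoxin in the stroma. Its 2 large reaction-centre proteins are encoded in the plastid, whereas many of the small subunits around them are encoded in the nucleus and imported. In leaves these nuclear genes are known to be strongly transcribed in green mesophyll cells and to follow light and chloroplast state together. The genes described here are the 9 nuclear subunit genes PsaD, PsaE, PsaF, PsaG, PsaH, PsaK, PsaL, PsaN and PsaO of rice, chosen by locus identifier. They are 9 of the 29690 loci named by a probe on the array, and 24 of the 42477 non-control probes start with one of the 9 identifiers. All 24 probes were among the 33120 that passed the filter on dim signals, and all were well above background on all 8 arrays. The array files hold locus identifiers without symbols, so the subunit names are those of the list itself. The reference gene table placed the name PSAH on chromosome 5, the chromosome in the identifier of PsaH, but placed PSAG on chromosome 5 whereas the identifier given for PsaG is on chromosome 9. No match was found there for PsaD, PsaE, PsaF, PsaK, PsaL, PsaN and PsaO. All names therefore rest on the list. For PsaH the reference gives the same chromosome, which does not by itself tie the name to this locus, and for PsaG it gives another chromosome.

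RNA was taken from the fifth-leaf blade of rice cultivar Hinohikari at the five-leaf stage, from plants kept at 25 ºC. Of the 2 groups, 1 had received 10 µM linalool, a monoterpene alcohol of plant volatiles, for 1 day, and the other is called mock-treated in 1 label and without treatment in another. It is called mock here. Each group had 4 replicates, and each replicate pooled at least 3 plants, so a value is an average over plants and over every cell type of the blade. The mock arrays shared a slide and a scan, and the linalool arrays shared a different slide and scan, so slide, scan and treatment cannot be told apart.

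Levels are given as log2 signal relative to the array's 75th percentile, and a difference is always linalool minus mock, so that -1 is a 2-fold lower level. The test was limma, fitted to all 33120 probes, with Benjamini-Hochberg adjustment and a threshold of 0.05, and each gene is represented by its brightest probe. Arrays correlated at 0.975 to 0.992 within mock, at 0.987 to 0.996 within linalool and at 0.866 to 0.905 between groups. The leaf markers used to check the tissue, 3 Rubisco small subunit genes and Rubisco activase by recalled identifier, were well above background on every array.

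All 9 genes were lower after linalool. Every one of the 9 passed limma, every one was at least 2-fold lower, and in every one all linalool arrays lay below all mock arrays. The background is large: of 21544 tested genes, 38.5% were called lower and 28.9% higher, 17.5% were called and at least 2-fold lower, and 36% had all linalool arrays below all mock arrays. The median difference of the 9 genes was -1.97, against -0.10 over all tested genes. The differences spanned a narrow range, from -1.59 for PsaG to -2.36 for PsaF, so that 19.5% to 33.2% of the mock level was measured after linalool. The largest limma adjusted p among the 9 was 2.90e-05. In a bulk sample, fewer cells of a type and less RNA per cell cannot be told apart. These sizes hold relative to the 75th percentile, and with quantile normalisation 8 of the 9 genes passed but only PsaF remained at least 2-fold lower, as set out with the processing below.

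**Figure D1:**
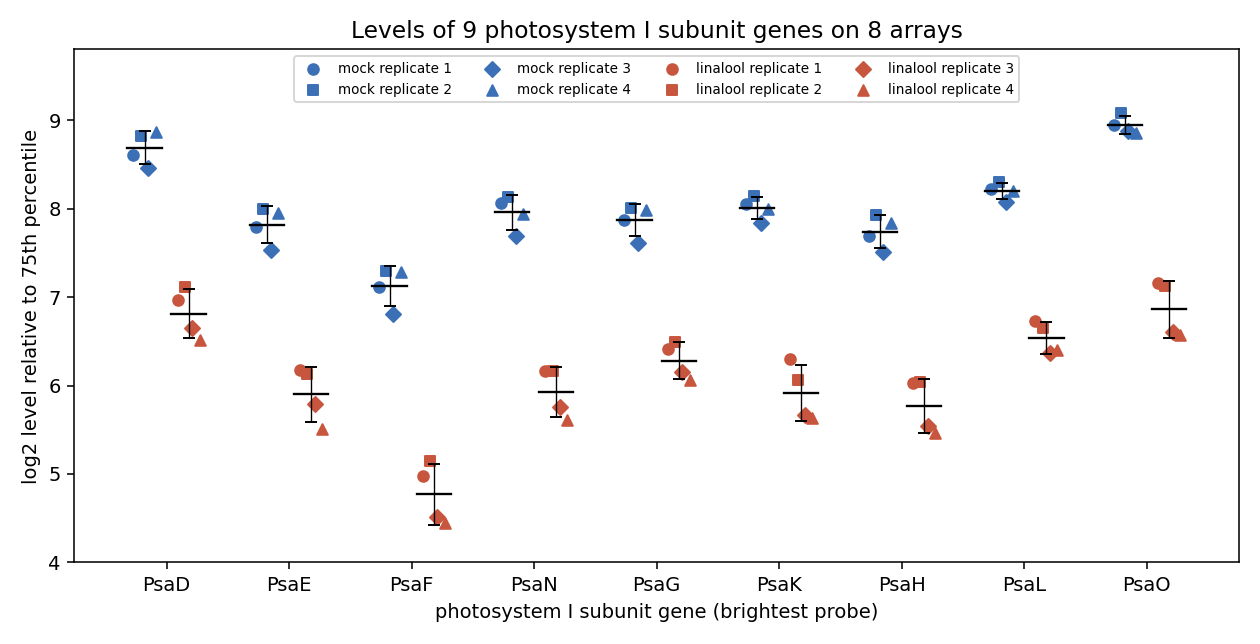
Log2 level relative to the 75th percentile (vertical axis) of the 9 genes (horizontal axis, grouped by position in the complex) on each of the 4 mock and 4 linalool arrays. Points are arrays, horizontal bars are group means and error bars are 1 SD (n = 4). The 2 groups do not overlap for any of the 9 genes.

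PsaD (Os08g0560900) and PsaE (Os07g0435300) are subunits of the stromal side, where PsaD forms much of the docking site for ferredoxin and PsaE stabilises that site. PsaD stood at 8.61, 8.82, 8.46 and 8.86 on mock arrays 1 to 4 and at 6.96, 7.11, 6.65 and 6.51 on linalool arrays 1 to 4. The lowest mock array was therefore above the highest linalool array by more than the spread within either group. The mean fell by 1.88 (SE 0.16, limma adjusted p = 2.01e-05), from 8.69 ± 0.19 to 6.81 ± 0.28 (SD, n = 4 each). PsaE stood at 7.79, 7.996, 7.53 and 7.95 in mock and at 6.17, 6.13, 5.80 and 5.51 after linalool. Its groups were also apart, with linalool replicate 4 the lowest, and the mean fell by 1.91 (SE 0.17, limma adjusted p = 2.90e-05). The differences of the 2 stromal subunits were 0.037 apart on the log2 scale, within the array spread of their ratio (SD 0.056 in mock and 0.10 after linalool, exact permutation p = 0.543, two-sided, n = 4 each).

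PsaF (Os03g0778100) and PsaN (Os12g0189400) lie on the lumenal side, where PsaF helps plastocyanin dock and PsaN is a peripheral subunit of the lumen. PsaF stood at 7.11, 7.30, 6.81 and 7.29 in mock and at 4.98, 5.15, 4.51 and 4.45 after linalool. Its mean fell by 2.36 (SE 0.19, limma adjusted p = 1.63e-05), or 5.12-fold, the largest fall of the 9. It also had the widest spread within groups, with an SD of 0.23 in mock and 0.34 after linalool. PsaN stood at 8.07, 8.13, 7.69 and 7.94 in mock and at 6.17, 6.16, 5.76 and 5.61 after linalool. Its mean fell by 2.03 (SE 0.16, limma adjusted p = 1.60e-05), with mock replicate 3 as the lowest mock array and still well above every linalool array.

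PsaG (Os09g0481200) and PsaK (Os07g0148900) are membrane subunits known for contacts with the light-harvesting belt of photosystem I, at opposite ends of it. PsaG stood at 7.87, 8.01, 7.61 and 7.99 in mock and at 6.42, 6.49, 6.15 and 6.06 after linalool. The mean fell by 1.59 (SE 0.13, limma adjusted p = 2.10e-05), or 3.01-fold, the smallest fall of the 9 on this scale and by brightest probe. PsaK stood at 8.05, 8.14, 7.84 and 8.0003 in mock and at 6.30, 6.06, 5.67 and 5.64 after linalool. The mean of PsaK fell by 2.09 (SE 0.16, limma adjusted p = 1.37e-05), and its linalool arrays were more spread (SD 0.32) than its mock arrays (SD 0.13).

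PsaH (Os05g0560000), PsaL (Os12g0420400) and PsaO (Os04g0414700) form the side of the complex where mobile light-harvesting complex II binds in state transitions, and PsaL in cyanobacteria also joins the complexes into trimers. PsaH stood at 7.69, 7.93, 7.50 and 7.84 in mock and at 6.03, 6.03, 5.54 and 5.47 after linalool. Its difference was -1.97 (SE 0.17, limma adjusted p = 2.08e-05), the middle value of the 9. PsaL stood at 8.22, 8.30, 8.07 and 8.20 in mock and at 6.73, 6.65, 6.37 and 6.40 after linalool. With the least spread of the 9 in both groups (SD 0.093 and 0.18), it had the smallest adjusted p although its difference of -1.66 (SE 0.11, limma adjusted p = 6.13e-06) was the next smallest after that of PsaG. PsaO stood at 8.94, 9.09, 8.88 and 8.86 in mock and at 7.16, 7.13, 6.60 and 6.57 after linalool. It fell by 2.08 (SE 0.16, limma adjusted p = 1.29e-05), and its linalool replicates 1 and 2 were above replicates 3 and 4.

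The 9 genes were set against each other in 36 pairs, by the difference of the 2 levels on each array, which does not depend on how whole arrays are scaled. For 16 of the 36 pairs this difference did not overlap between mock and linalool arrays. These pairs had the smallest two-sided exact permutation p that 4 against 4 arrays allow, 0.0286. The same share over pairs of other tested genes was not computed, so the count is not shown to be particular to the members. Adjusted over the 36 pairs, the smallest exact permutation p became 0.0643, so 0 pairs passed the threshold and 16 had an unadjusted p under 0.05. At least 21 pairs at the smallest p would have been needed for any to pass. PsaF was part of 6 of the 16 pairs, PsaG of 7 and PsaL of 5. In these pairs PsaF fell more than its partner, and PsaG and PsaL fell less. These directions add nothing to the order of the mean falls, in which PsaF had the largest and PsaG and PsaL the 2 smallest. The widest pair was PsaF and PsaG, with a difference of -0.77 between their changes (SD 0.047 among mock and 0.14 among linalool arrays, n = 4 each). PsaG and PsaL differed by 0.074 (exact permutation p = 0.314, two-sided, n = 4 each). The pairs that did overlap between groups differed by at most 0.28.

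Of the 9 genes, 6 had more than 1 probe, and all 24 probes were called lower, against 38.9% of all tested probes. Of the 24 probes, 22 target the coding sequence with the 3' UTR and 2 the coding sequence. Probes of a gene share its transcripts and are not replicates. Among the 4 PsaD probes the differences ran from -2.16 to -1.85, with -1.88 for the brightest. For PsaF, also with 4 probes, they ran from -2.39 to -2.25. Both ranges were narrower than that of the 9 genes, -2.36 to -1.59. The brightest probe had the smallest fall in PsaG (-1.59, against -1.81 for its other probe), in PsaK (-2.09 against -2.38) and in PsaH (-1.97 against -2.08 and -2.21). This was not so in PsaD, PsaF and PsaL. Part of the order of the genes therefore rests on which probe represents each. With the mean over probes, PsaL had the smallest fall (-1.67) and PsaG the next (-1.70).

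**Figure D2:**
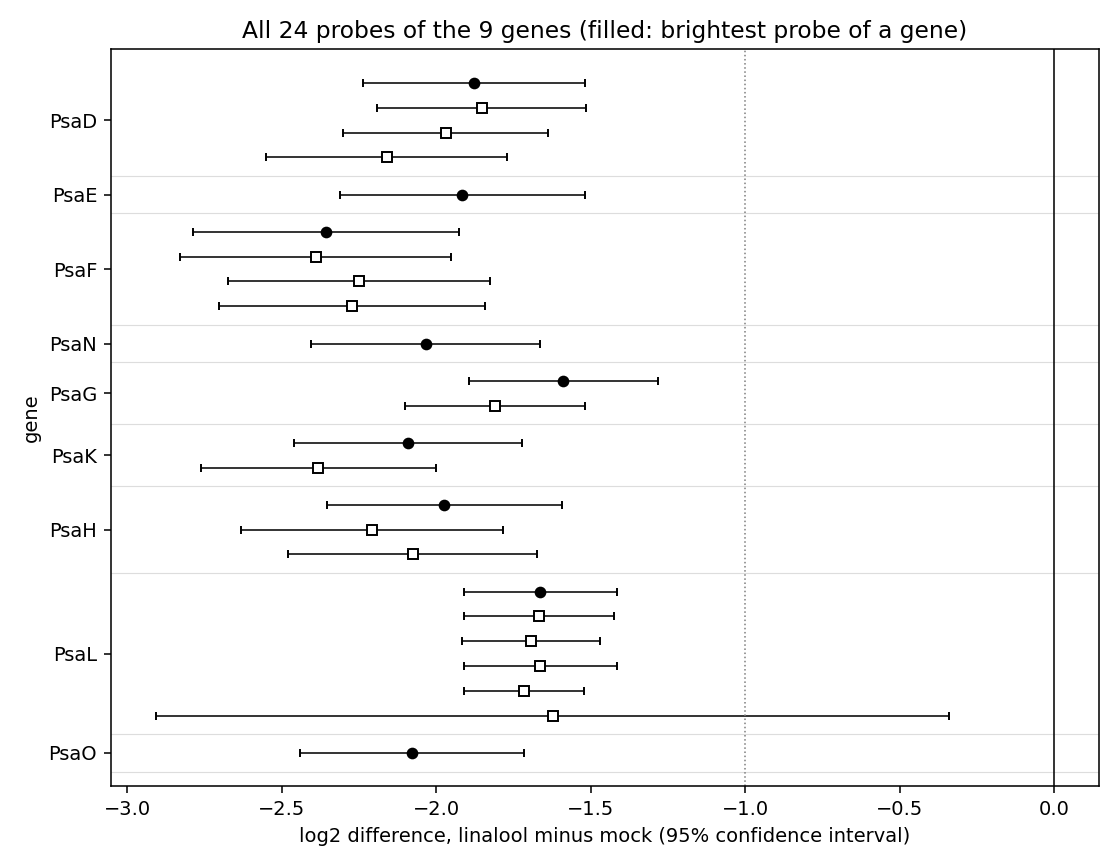
Log2 difference, linalool minus mock, of all 24 probes (horizontal axis) by gene (vertical axis), with 95% confidence intervals from limma. Filled circles are the brightest probe of a gene and open squares the other probes. The 23 bright probes lie between -2.39 and -1.59, and the last PsaL probe has the only wide interval.

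PsaL was read by 6 probes, which fell into 2 kinds. The 5 bright ones, named for transcripts 1 and 2 of the gene (Os12t0420400-01 and -02), gave differences of -1.72 to -1.66. The sixth, named for transcript 3 (Os12t0420400-03), stood at -3.91, -1.41, -1.58 and -1.24 on mock arrays 1 to 4 and at -3.32, -4.06, -3.52 and -3.74 on linalool arrays 1 to 4. Mock replicate 1 lay within the linalool values, so the groups overlapped, while the other 3 mock arrays were above all linalool arrays. The difference was -1.62 (SE 0.56, limma adjusted p = 0.0305). This call was lost with normexp correction (limma adjusted p = 0.317), with quantile normalisation (0.0581) and with spike-in scaling (0.137). It was also lost with any 1 of mock replicates 2, 3 and 4 or linalool replicates 2, 3 and 4 left out. Without mock replicate 1 the difference was -2.25 and the call was kept (limma adjusted p = 5.69e-05). The low value of mock replicate 1 was not seen in the 5 bright probes, which stood at 8.03 to 8.28 on that array.

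**Figure D3:**
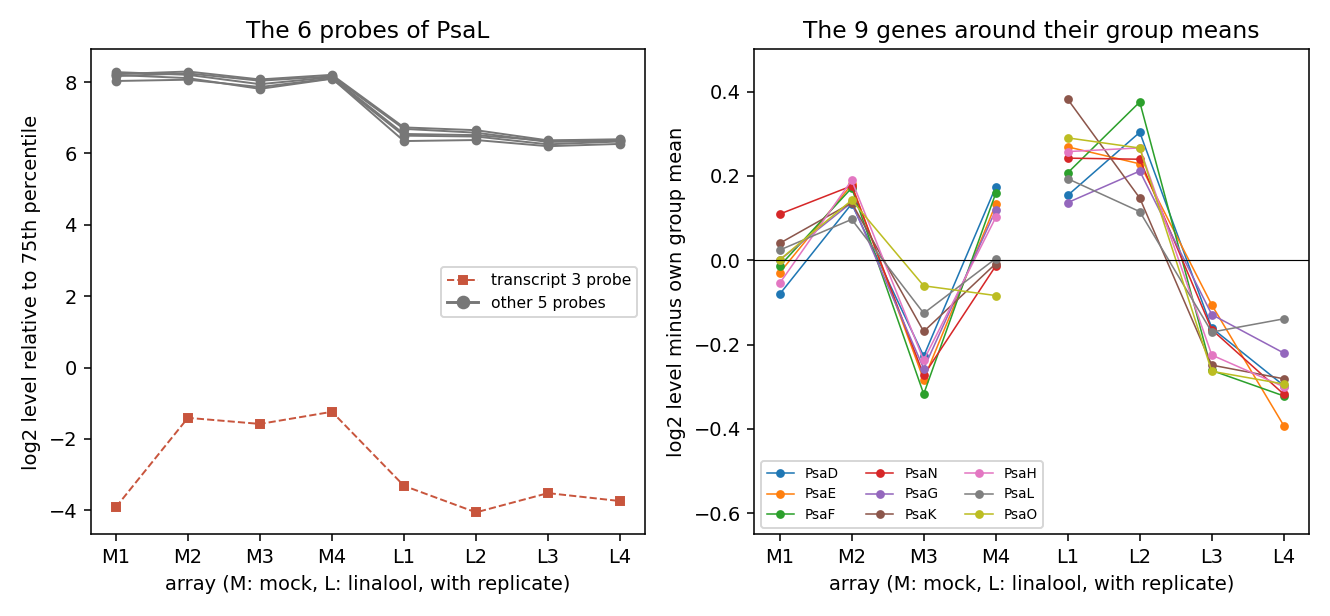
Left, log2 level relative to the 75th percentile (vertical axis) of the 6 PsaL probes on each array (horizontal axis), with the transcript 3 probe dashed. Right, the level of each of the 9 genes minus its own group mean. Mock replicate 1 stands at -3.91 on the transcript 3 probe, and in the right panel the genes move together, with linalool replicates 1 and 2 above replicates 3 and 4.

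Within each group the 9 genes moved together from array to array. Mock replicate 2 was the highest mock array for 8 of the 9 genes and mock replicate 3 the lowest for 8. On average mock replicate 2 stood 0.15 above the group mean and mock replicate 3 stood at -0.22 from it. Among linalool arrays, replicates 1 and 2 were both above replicates 3 and 4 for 9 of 9 genes, with mean deviations of 0.24, 0.24, -0.19 and -0.28. The median of all tested genes deviated by at most 0.026 on any array, which the scaling of each array keeps small. The 4 mesophyll markers showed the same order of linalool arrays. So did every antenna and electron transport gene of the lists below, and every photosystem II gene there but Os08g0200300. The order is therefore not particular to the 9 genes, and its share over all tested genes was not computed. The deviations of the 9 genes are small beside the difference between groups. Leaving out any 1 array moved their median difference only between -2.06 and -1.87.

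The differences were next read on other scales. The unscaled processed signal of the 9 genes lay between 96652 and 465094 units on mock arrays and between 31595 and 215737 units on linalool arrays, so the groups overlapped when genes are pooled but each gene was lower. On this unscaled signal the log2 differences were smaller, from -0.94 for PsaG to -1.70 for PsaF, with a median of -1.32. The 75th percentile itself was higher on every linalool array (1092 to 1605 units) than on every mock array (849.6 to 999.6 units). Part of each fall relative to that percentile therefore comes from the scaling, and the split follows treatment, slide and scan alike. On the scale of the authors' deposited value table, they ran from -1.52 to -2.29. Scaled to 6 spike-in probes, the median of all genes moved from -0.10 to 0.69, and all 9 genes still passed, with a median of -1.18 and with PsaG (-0.80) and PsaL (-0.87) under 2-fold. These scalings add 1 constant per array, so they leave the median of the 9 relative to the median of all genes at -1.87 by construction. That quantity was -2.05 with normexp correction, -1.68 with no filter and -0.79 with quantile normalisation.

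Quantile normalisation, which gives every array the same distribution of signals, moved the median of the 9 furthest among the alternatives. PsaF had a difference of -1.68 (limma adjusted p = 6.55e-05) and PsaH one of -0.94 (0.00284). For PsaG the difference was -0.22 (limma adjusted p = 0.0453), and PsaL did not pass with -0.17 (0.0676). The median of the 9 became -0.77, and only PsaF was at least 2-fold lower. By its construction this method sets the upper ends of the arrays equal, and relative to the array's 75th percentile those ends differed between groups. On that scale the 99th percentile of tested probes was at 6.25 ± 0.11 in mock and 5.63 ± 0.045 after linalool (SD, n = 4 each), a difference of -0.62. All 9 mock means lay above the mock value. The 75th percentile itself was higher on every linalool array, so the -0.62 does not show that the unscaled upper ends differed. The 99th percentile of the unscaled signal was not compared. The brightest member spot on any array reached 64.6% of the scanner's saturation value, and no spot was saturated.

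**Figure D4:**
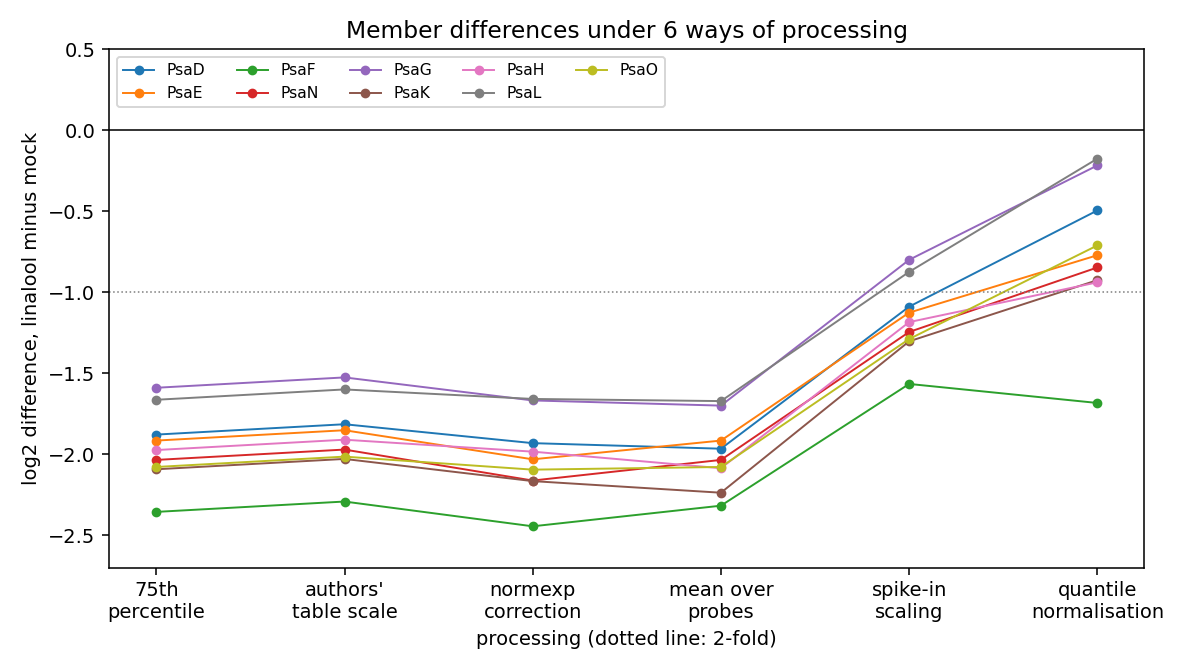
Log2 difference, linalool minus mock (vertical axis), of each of the 9 genes under 6 ways of processing (horizontal axis). Lines join the values of 1 gene, and the dotted line is a 2-fold lower level. With quantile normalisation the values run from -1.68 for PsaF to -0.17 for PsaL, closer to 0 than under the 75th percentile for every gene.

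Genes around photosystem I in the electron path were read from lists of recalled rice identifiers, chosen with earlier results of these data known. Of 6 genes for the light-harvesting antenna of photosystem I, 6 fell and 0 rose, with a median of -2.04. The largest difference there was -3.87 for Os09g0439500, whose linalool values ran from 0.02 on replicate 1 to -3.14 on replicate 4, and the smallest was -1.72 for Os02g0764500. Of 9 genes for nuclear subunits of photosystem II, 8 fell and 0 rose (median -2.03), with extremes among those that passed of -3.32 for Os01g0869800 and -1.12 for Os08g0200300. Os07g0147500 did not pass in that list, with a difference of -2.04 (limma adjusted p = 0.0771) with levels of -2.71 to -1.55 on 3 mock arrays and of 1.66 on mock replicate 3. Of 7 genes for thylakoid electron carriers and ATP synthase subunits, 7 fell (median -1.86), from -2.49 for Os02g0750100 to -1.61 for Os02g0103800. The photosystem I subunits had a narrower range than any of these full lists, -2.36 to -1.59, and a median between theirs. Apart from Os09g0439500, the antenna genes ran from -2.38 to -1.72, so a narrow range is not particular to the subunits. No test of a difference between lists was made.

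**Figure D5:**
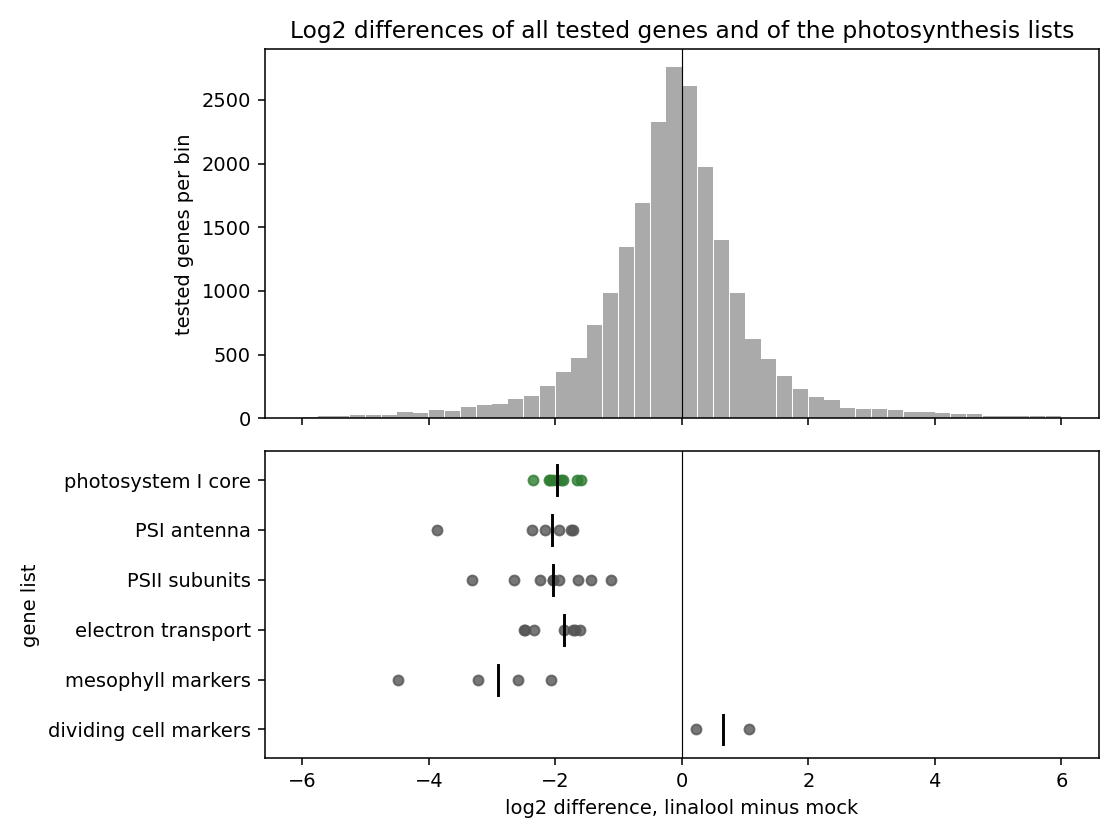
Top, number of tested genes (vertical axis) by log2 difference, linalool minus mock (horizontal axis, bins of 0.25, values beyond 6 on either side not drawn). Bottom, the same difference for each tested gene of the photosystem I subunits, the comparison lists and the markers, with vertical bars at the medians, which are -1.97 for photosystem I, -2.04 for its antenna, -2.03 for photosystem II and -1.86 for electron transport.

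Marker lists for cell types of the blade are given beside these falls. The 4 mesophyll markers all fell, with differences of -4.49 to -2.07, and their summed signal relative to the 75th percentile was 1215 to 1437 on mock arrays and 145.6 to 356.2 on linalool arrays. Of 3 markers of dividing cells, 2 were tested and rose, with differences of 0.23 and 1.06, and 1 never rose well above background. The difference of 1.06 was that of Os08g0512600, a dim gene at -5.76 in mock and -4.70 after linalool. It was well above background on 7 of 8 arrays. The summed signals of the list were 0.73 to 0.86 in mock and 0.92 to 0.97 after linalool. Of 3 secondary wall markers, 0 passed the filter on dim signals and 2 never rose well above background, with sums of 0.014 to 0.024 and 0.0040 to 0.0086. The part of cell composition in the fall of the photosystem I genes was not tested.

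The tested genes whose pattern was most like that of the 9 were found by the root mean square difference over the 8 arrays between a gene's level, centred on its own mean, and the average of the 9 centred members. The 5 closest non-members were Os07g0544800 (0.025 on the log2 scale), Os02g0197600 (0.051), Os06g0654600 (0.061), Os07g0141400 (0.069) and Os01g0106900 (0.071). Os07g0544800 and Os07g0141400 are in the photosystem II list and Os02g0197600 in the photosystem I antenna list. Of the members themselves, PsaH was closest to the average (0.034), although it is part of that average. These distances describe 8 arrays in 2 groups and are dominated by the difference between the groups.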

How the data were processed

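Total RNA (100 ng) was labelled with Cy3 as 1 colour and hybridised for 17 h at 65 ºC, per the labels and the series' design text. Per the file headers, scans were read in Agilent Feature Extraction 10.7.3.1. The intensity column used from the deposited files is the processed signal of that program, with no scaling between arrays. The deposited value table holds the same intensity multiplied by 1 constant per array, 1.37 to 2.51, and the sources used here do not give its rule. Here the processed signal was taken to log2, flagged spots (4 to 17 per array) were left out and spots of a probe were averaged. The array's 75th percentile was then subtracted, 849.6 to 999.6 units on mock arrays and 1092 to 1605 units on linalool arrays. The share of spots well above background was 73.3% to 77.3%. The 33120 probes well above background on at least 4 of 8 arrays went into the limma fit (version 3.58.1, under R 4.3.3). A gene took its brightest tested probe, and 1358 probes whose name columns disagree on the locus were left out of gene counts (0 of them members).

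The members and lists were chosen with earlier results of these data known. All 9 members were to be named, with the largest and smallest difference among called genes of each comparison list and the 5 genes most alike. Pairs of members were compared by exact permutation over 70 regroupings. Alternatives covered background correction, scaling, filter, probe choice, variance model, replicate block and left-out arrays. Promoter and protein sequences were not used here. The fit was tested on simulated data for linalool against mock with 33079 probes. Of simulated log2 changes, 25.4% of size 0.5, 71.6% of size 1 and 81.8% of size 2 were found, and 7 calls were false. Only a small share of probes was changed there, with independent noise, whereas 38.5% of genes were called lower and 28.9% higher in the data. The simulated rates therefore do not give the rates of the real fit. The number of arrays limits the precision. P-values measure the spread between pools, which the design text calls biological replicates. Same-numbered arrays of the 2 groups deviated together with correlations of -0.0035, 0.17, 0.11 and -0.11. Such values cannot show whether same-numbered pools were grown or handled together. The main fit treated the samples as unpaired, and the replicate block was an alternative.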

Additional observations from a re-analysis of the deposited data

Results flagged for a closer look

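Of 20 groups of 4 arrays, the 9 genes and the PsaL transcript 3 probe in each treatment, 1 held an array far from the others, where chance gives about 1 in 20. On the PsaL transcript 3 probe, mock replicate 1 stood at -3.914, with the nearest mock array at -1.581 and the farthest at -1.241. The gap was 0.873 of the group's range. This is above the 95% critical value for 4 samples.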

How the results depend on the processing

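All alternatives were planned, with earlier results known. Over 19 alternatives 9 of 9 genes were called lower in each but quantile normalisation, where 8 were. There PsaL did not pass, 1 gene was at least 2-fold lower and the median difference was -0.77. With spike-in scaling the median was -1.18, and 7 genes were at least 2-fold lower. All 9 remained at least 2-fold lower in the other alternatives. The median was -2.24 without both linalool replicates 1 and 2 and -1.71 without both 3 and 4, and -2.06 to -1.87 without 1 array at a time. With the replicate block, 9 genes were called lower with the same median, -1.97. The block changed no call of the 9 genes, but the PsaL transcript 3 probe had an adjusted p of 0.0553. No paired test of the 36 member pairs was made, since 4 pairs of arrays cannot reach the threshold, and neither can groups without 2 arrays. In the other 16 alternatives 0 pairs passed, and 13 to 22 did not overlap. Of the comparison lists, 7 to 9 of 9 photosystem II genes, 6 or 7 of 7 electron transport genes and 6 of 6 antenna genes were called lower throughout. Normexp correction called 2728 genes lower and 3088 higher, against 8289 and 6235, and spike-in scaling 2667 lower and 12902 higher. The median of all genes, -0.10, became 0.023 under normexp, 0.019 under quantile normalisation and 0.69 under spike-in scaling, and without a filter it was -0.30. Without a filter the 3 secondary wall markers entered the test, and 3 were called lower (median -1.41) though 2 of the 3 never rose well above background. Of the dividing cell markers, 1 was then called lower. Their median went from 0.64 to 0.23, the value of Os02g0805200, because the marker never well above background entered the list. With the filter on all 8 arrays it was also 0.23, because Os08g0512600, above background on 7 arrays, dropped out. It was 0.31 with normexp and 1.43 with spike-in scaling, which adds 1 constant per array. The cause of the other shifts was not tested.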
